A study of Mus musculus with 8 samples.

Results

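Basal, wound and simple keratins were compared between dorsal skin of mouse embryos lacking the glucocorticoid receptor and that of wild-type embryos. The 10 genes were chosen by name: Krt5, Krt14 and Krt15 of the basal layer, Krt6a, Krt6b, Krt16 and Krt17 of wound and follicle epithelium, and Krt8, Krt18 and Krt19 of simple epithelia. They were read at the 17 probe sets (groups of short probes on the array) annotated to exactly 1 of these genes, out of 45037 probe sets and 18193 genes tested. Each gene was valued at its brightest probe set by the mean over all 8 arrays. Each genotype had 4 arrays, named here by the numbers in their labels: wild-type (GR+/+) 4, 6, 28 and 29, and GR-null (GR-/-) 5, 17, 25 and 26. Values for single arrays follow that order throughout. All embryos were of strain B6D2/F1 at embryonic day 18.5, GR being the steroid-activated transcription factor encoded by Nr3c1. The labels give neither the targeted allele nor the litters, and nothing in them ties each array to its own embryo, so p-values cover only the spread among these samples, which may be technical. RNA came from whole dorsal skin, in which fewer cells of a type and less RNA per cell cannot be told apart.

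Keratins are the intermediate filament proteins of epithelial cells, and each filament is built from a type I and a type II chain. Krt5 (type II) and Krt14 (type I) pair in basal keratinocytes, Krt6a and Krt6b (type II) pair with Krt16 and Krt17 (type I) in hair follicle epithelium, nail and injured epidermis, and Krt8 (type II) pairs with Krt18 and Krt19 (type I) in simple epithelia and Merkel cells. Glucocorticoids are known to repress several basal and wound keratin genes in cultured keratinocytes. By RefSeq's gene order in GRCm38.p6, Krt6b, Krt6a and Krt5 are consecutive coding genes on chromosome 15, where Krt8 and Krt18 also lie side by side. Krt15 and Krt19, and Krt14, Krt16 and Krt17, are neighbours on chromosome 11.

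The Nr3c1 transcript, which checks the genotype labels, read 10.24, 10.32, 10.24 and 10.24 log2 in the wild-type arrays at its brightest probe set, and 9.21, 9.24, 9.62 and 9.61 in the GR-null arrays. It fell by 0.84 ± 0.11 log2 (SE, n = 4 per group, limma adjusted p = 0.0108), with no overlap between the groups. The sources used here do not say whether that probe set reads the disrupted part of the gene. Markers of the labelled tissue were bright on all arrays: the mean of 6 suprabasal markers lay between 11.98 and 12.32 log2 in wild-type and between 11.30 and 11.67 in GR-null arrays, and that of 6 basal keratinocyte markers between 9.81 and 10.001 and between 10.10 and 10.31. The basal mean, which leaves out the keratins themselves, thus did not overlap between the genotypes and was higher without the receptor. Of its 6 genes, 4 were higher at an unadjusted p below 0.05, against 10.5% of all genes. Past the threshold over all genes were 2 (Trp63 and Col17a1), against 1.4% higher, and the median log2 fold change was 0.29. The suprabasal mean did not overlap either and was lower, with a median of -0.31. Of its 6 genes, 3 were lower unadjusted (11.1% of all genes were) and 2 past the threshold (Lor and Flg, against 1.56%). Taken singly, 13.0% of all genes did not overlap. Within the suprabasal list the fall was uneven, with log2 fold changes of -2.35 for Flg, -0.99 for Ivl and -0.48 for Lor. Its keratins moved little, Krt1 by -0.15 (limma adjusted p = 0.283, without overlap) and Krt10 by -0.05 (adjusted p = 0.791). Krt2 was at 0.01 and dim, at 3.73 to 4.20. The mean of 18 skeletal muscle markers lay between 11.52 and 11.65 in wild-type arrays and at 10.53, 11.47, 10.80 and 10.75 in the GR-null arrays. GR-null 17 thus stood apart from the other GR-null arrays, close to the wild-type range.

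None of the 10 keratins differed between the genotypes past the threshold of 0.05 over all genes in limma's moderated test with Benjamini-Hochberg adjustment. The background share of genes past that threshold was 2.96%. Unadjusted, 1 member was higher at p below 0.05 (Krt17, against 10.5% of all genes) and 2 were lower (Krt6b and Krt8, against 11.1%), or 3 of 10 against 21.6% in both directions. For 0 of the 10 did the values of the groups fall apart without overlap, against 13.0% of all genes. The median log2 fold change, GR-null minus wild-type, was -0.17 over the members and -0.0045 over all genes. Many of these keratins spread widely within a genotype: the within-group SD of Krt6a and Krt19 lay at the 99.9 percentile of all genes, that of Krt6b at 99.7 and that of Krt16 at 99.4. This was not particular to them, since 17 of the 38 other keratins on the array, like 6 of these 10, lay at or above the 95 percentile.

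**Figure D1:**
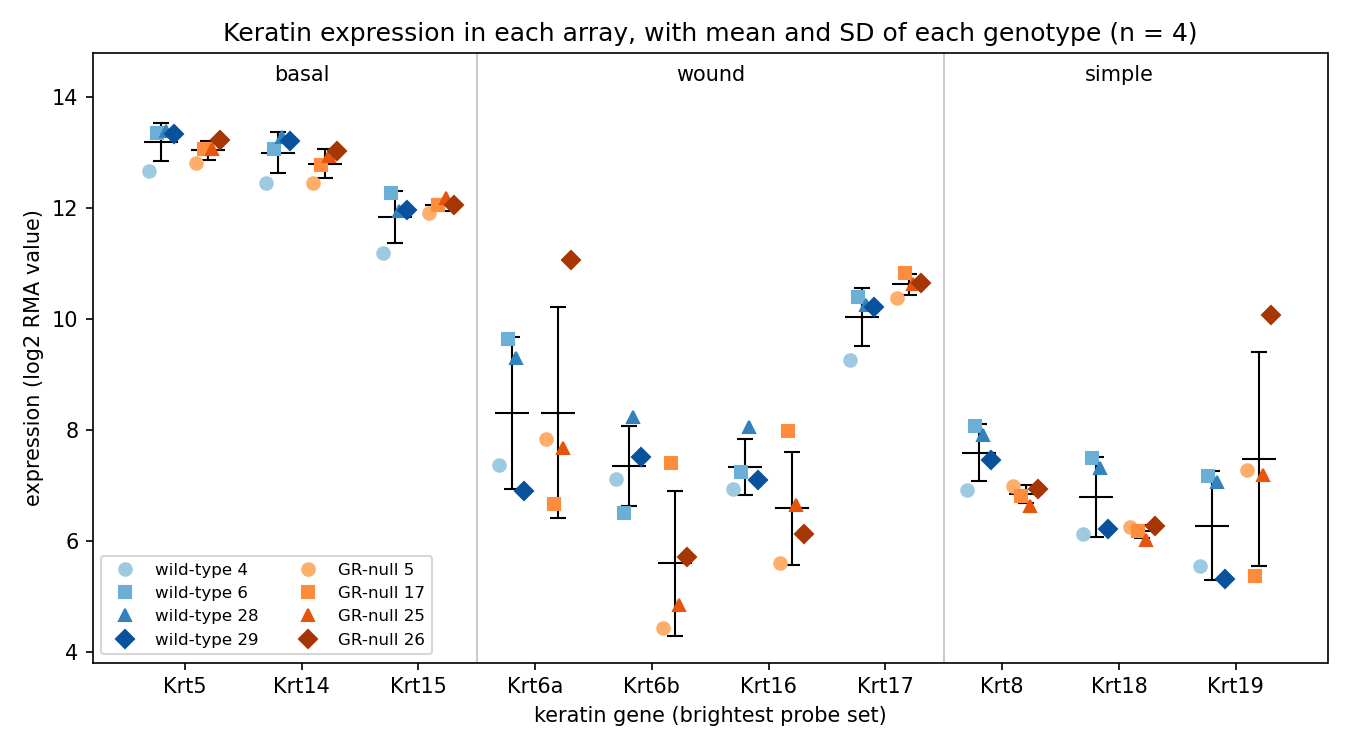
Log2 expression of the 10 keratins (y axis) at their brightest probe set in each of the 8 arrays, wild-type in blue and GR-null in orange, with horizontal bars for the mean and whiskers for the SD of each genotype (n = 4). The basal keratins sit between 11.18 and 13.39 in both genotypes, while Krt6a and Krt19 spread over several log2 units within each genotype and reach 11.06 and 10.06 in GR-null 26.

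The basal keratins were among the brightest transcripts of the skin and showed small differences. Krt5, the main type II keratin of the basal layer, read 12.68, 13.35, 13.39 and 13.34 log2 in the wild-type arrays and 12.81, 13.06, 13.07 and 13.23 in the GR-null arrays. Wild-type 4 was the lowest of all arrays and the other wild-type arrays were the highest. Its log2 fold change was -0.14 ± 0.17 (SE, n = 4 per group, 95% interval -0.52 to 0.23, limma adjusted p = 0.691). Its partner Krt14 read 12.46, 13.06, 13.28 and 13.22 in wild-type and 12.45, 12.78, 12.95 and 13.03 in GR-null arrays. The groups overlapped across most of their range, with a log2 fold change of -0.20 ± 0.19 (95% interval -0.64 to 0.24, adjusted p = 0.618). The intervals of both genes leave out a change of 2-fold in either direction (1 log2 unit), although values this bright are compressed on such arrays.

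Krt15, a type I keratin of basal cells and of the hair follicle bulge, read 11.18, 12.27, 11.94 and 11.96 in wild-type arrays and 11.91, 12.06, 12.19 and 12.06 in GR-null arrays. Wild-type 4 was again the lowest, and the remaining arrays spanned 11.91 to 12.27. A log2 fold change of 0.21 ± 0.20 (adjusted p = 0.61) resulted. Without wild-type 4 it was -0.0055, so the sign rested on that array. The within-array difference of Krt5 and Krt14, which removes what an array shares between both partners, was 0.19 ± 0.09 log2 (SD, n = 4) in wild-type skin and 0.24 ± 0.10 without the receptor. That of Krt5 and Krt15 was 1.35 ± 0.18 and 0.99 ± 0.13. The balance of Krt5 to Krt14 therefore shifted by 0.06 log2 and that of Krt5 to Krt15 by -0.36, as descriptions without a test.

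The probe sets of Krt14 disagreed. At its second probe set by brightness the log2 fold change was -0.19 ± 0.24 (adjusted p over probe sets = 0.712), close to that of the brightest. At the dimmest the wild-type arrays read 7.25, 7.86, 8.14 and 8.09 and the GR-null arrays 6.67, 7.05, 7.02 and 6.99, and every GR-null value lay below every wild-type value. This probe set fell by 0.90 ± 0.19 log2 (SE, n = 4 per group, limma adjusted p over probe sets = 0.0393). It was the 1 of 17 member probe sets past the threshold, against 3.85% of all probe sets, or 1.63% counting falls alone. The difference between this probe set and the brightest one within an array was -5.20, -5.21, -5.14 and -5.12 in the wild-type arrays and -5.77, -5.73, -5.93 and -6.04 in the GR-null arrays. The low values of both probe sets in wild-type 4 cancelled in that difference, and the genotypes were then separated by a gap larger than the spread within either. The sources used here do not say which stretch of the transcript each probe set reads. The call at the dimmest probe set was lost in the fits without wild-type 6, 28 or 29 or GR-null 5, 25 or 26. In each of these fits 0 of 17 member probe sets passed the threshold. Of all probe sets 4.67%, 0.451%, 0.477%, 1.04%, 0.278% and 0.393% passed there, in that order, against 3.85% with all arrays. The log2 fold change of the dimmest probe set stayed between -1.09 and -0.80 without any 1 array. With the skeletal muscle mean as a covariate it was at -0.64 ± 0.32 (adjusted p = 0.586), and with the basal keratinocyte mean at -1.495 ± 0.33 (adjusted p = 0.143). A further probe set that the annotation gives to both Krt14 and Krt17 was not used for either gene and differed by -0.19 ± 0.11 log2 (adjusted p over probe sets = 0.351).

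**Figure D2:**
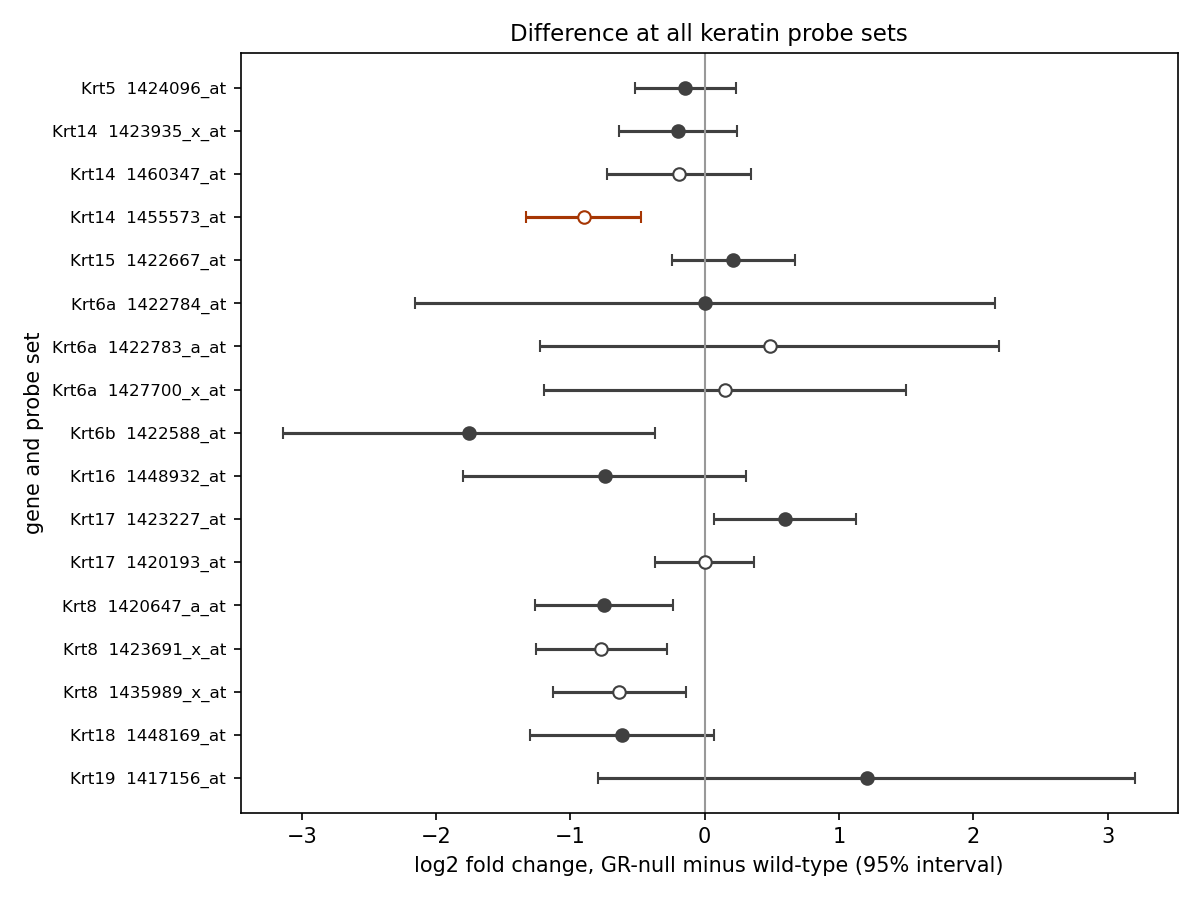
Log2 fold change, GR-null minus wild-type (x axis), with its 95% interval at the 17 probe sets of the 10 keratins (y axis); filled points are the brightest probe set of each gene, open points the others, and red marks an adjusted p over all probe sets below 0.05. Only the dimmest Krt14 probe set is red, at -0.90, while the intervals of Krt6a, Krt6b and Krt19 are the widest.

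The wound keratins did not move as a block. Krt17, a type I keratin of the follicle, the periderm and injured epidermis, read 9.25, 10.40, 10.25 and 10.21 log2 in the wild-type arrays and 10.39, 10.83, 10.63 and 10.66 in the GR-null arrays. GR-null arrays occupied the upper end, with wild-type 6 just above GR-null 5. Krt17 thus had a log2 fold change of 0.60 ± 0.23 (SE, n = 4 per group, 95% interval 0.07 to 1.12, limma adjusted p = 0.182). Without wild-type 4, the lowest array by far, it was 0.34. The dim second probe set of Krt17, at 4.73 to 5.48 over all arrays, gave 0.0001 ± 0.16.

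Krt16, the stress-induced type I keratin, read 6.93, 7.24, 8.05 and 7.09 in wild-type arrays and 5.60, 7.98, 6.65 and 6.11 in GR-null arrays. GR-null 5, 25 and 26 lay below all wild-type arrays, while GR-null 17 was level with the highest of them. Its log2 fold change was -0.74 ± 0.47 (adjusted p = 0.409). Krt6b, a type II keratin of the same setting, also had GR-null 5, 25 and 26 below all wild-type arrays, with GR-null 17 inside the wild-type range. It read 7.11, 6.51, 8.24 and 7.51 in the wild-type arrays and 4.42, 7.39, 4.84 and 5.70 in the GR-null arrays. Its log2 fold change was -1.75 ± 0.61 (3.37-fold lower, 95% interval -3.14 to -0.37, adjusted p = 0.143). Without GR-null 17 both genes passed the threshold, Krt6b at -2.35 (adjusted p = 0.0152) and Krt16 at -1.21 (adjusted p = 0.0493). In that fit 1640 of all genes passed (9.01%). In the other 7 fits without 1 array neither gene passed.

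GR-null 17 was also the GR-null array whose skeletal muscle mean was near the wild-type range, as given above. Among the GR-null arrays, Krt6b and Krt16 were thus highest where that mean was highest. Among the wild-type arrays the mean stayed within 11.52 to 11.65, while Krt6b ran from 6.51 to 8.24. Of the 18 muscle markers, 12 were lower at an unadjusted p below 0.05 (11.1% of all genes were) and 3 past the threshold over all genes (1.56% were). With the muscle mean as a covariate Krt6b was at 0.35 ± 0.61 log2 (adjusted p = 0.895) and Krt16 at 0.91 ± 0.43 (adjusted p = 0.506), both with the sign turned. With the basal keratinocyte mean as a covariate they moved the other way, Krt6b to -3.25 ± 1.17 (adjusted p = 0.342) and Krt16 to -2.21 ± 0.81 (adjusted p = 0.348). In the fits with the muscle and basal means, 0.39% and 0.033% of all genes passed the threshold. Neither mean overlapped between the genotypes, so covariate and genotype cannot be told apart. GR-null 17 was also set apart by hair follicle keratins. Krt25, a keratin of the inner root sheath, read 11.89 there and 5.54 to 7.86 in the other 7 arrays, Krt27 read 10.03 against 5.47 to 6.11, and Krt71 read 10.02 against 6.195 to 6.84. Krt28, Krt73 and Krt35 read 9.95, 9.63 and 9.40 in that array and at most 7.15, 7.19 and 6.60 in the others, and Krt75 of the companion layer read 7.79 against 5.58 to 5.98. The mean of the 8 outer root sheath and bulge markers was 9.68 in GR-null 17, 8.73 to 9.07 in the other GR-null arrays and 8.93 to 9.09 in wild-type arrays. The part of follicle tissue in the Krt6b and Krt16 values of GR-null 17 was not tested.

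Krt6a, the paralogue next to Krt6b, followed a different order of arrays. It read 7.37, 9.65, 9.29 and 6.89 in the wild-type arrays and 7.83, 6.66, 7.68 and 11.06 in the GR-null arrays. GR-null 26 was the highest of all and GR-null 17 the lowest, and both genotypes spanned several log2 units. The log2 fold change was 0.01 ± 0.96 (95% interval -2.15 to 2.16, adjusted p = 0.999), an interval too wide to exclude a 4-fold change (2 log2 units) in either direction. The other probe sets of Krt6a gave 0.48 ± 0.76 and 0.15 ± 0.60, and GR-null 26 was the highest array in each. The within-array difference of Krt6b and Krt6a ran from -3.14 to 0.62 in wild-type arrays and from -5.36 to 0.73 in GR-null arrays. As close paralogues they can share signal where a probe matches both, which the probe set whose name ends in _x_at is prone to.

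Krt8 and Krt18, the partner pair of simple epithelia, were lower in GR-null skin without passing the threshold. Krt8 read 6.92, 8.06, 7.91 and 7.45 log2 in the wild-type arrays and 6.98, 6.80, 6.62 and 6.94 in the GR-null arrays. The GR-null arrays were tightly grouped at the lower end, beside wild-type 4, while the other wild-type arrays lay above them. This gave a log2 fold change of -0.75 ± 0.23 (SE, n = 4 per group, 1.68-fold lower, 95% interval -1.26 to -0.23, limma adjusted p = 0.104), the smallest adjusted p of the 10 genes. Its other probe sets gave -0.77 ± 0.22 and -0.64 ± 0.22 (adjusted p over probe sets = 0.0777 and 0.131). In the first of these the groups did not overlap, which made it and the dimmest Krt14 probe set the 2 of 17 without overlap, against 12.6% of all probe sets. Without wild-type 4 the log2 fold change of Krt8 was -0.97 (adjusted p = 0.0338), past the threshold, as were 1.62% of all genes. In the other 7 fits without 1 array Krt8 was not past it, for example at -0.59 without wild-type 6 (adjusted p = 0.168).

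Krt18 read 6.12, 7.5, 7.32 and 6.21 in wild-type arrays and 6.25, 6.18, 6.0 and 6.26 in GR-null arrays. Wild-type 6 and 28 stood above all other arrays, which shared a narrow range. The log2 fold change was -0.61 ± 0.30 (95% interval -1.30 to 0.07, adjusted p = 0.282). The within-array difference of Krt8 and Krt18 was 0.80 ± 0.31 (SD, n = 4) in wild-type skin and 0.66 ± 0.06 without the receptor, a shift of -0.14 log2. Wild-type 6 and 28 were thus high for both partners, while wild-type 29 lay above the GR-null arrays for Krt8 but not for Krt18.

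For the neighbouring partner genes Krt8 and Krt18, the 250 bases upstream of their RefSeq starts (GRCm38.p6) are given 5′ to 3′ on the gene's own strand. The Krt8 window is chr15:102004343-102004592 (minus strand) and the Krt18 window chr15:102027966-102028215 (plus strand). Both are reference sequence, not read from these embryos, and do not bear on differences between arrays. Capitals mark matches to the TATA box letters TATAA.
Krt8: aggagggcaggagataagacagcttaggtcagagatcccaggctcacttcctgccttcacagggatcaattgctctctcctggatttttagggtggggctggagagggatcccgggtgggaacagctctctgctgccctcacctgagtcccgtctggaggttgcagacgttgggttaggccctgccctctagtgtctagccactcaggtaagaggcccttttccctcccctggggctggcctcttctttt
Krt18: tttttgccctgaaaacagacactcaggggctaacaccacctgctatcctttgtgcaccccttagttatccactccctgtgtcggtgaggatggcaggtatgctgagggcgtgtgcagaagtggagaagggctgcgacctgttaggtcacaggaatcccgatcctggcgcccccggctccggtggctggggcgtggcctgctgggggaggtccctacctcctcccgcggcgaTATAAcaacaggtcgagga
The Krt18 window held 1 match and the Krt8 window 0, where 22.8% of 32851 RefSeq windows of that length held TATAA on either strand. Neither window held the glucocorticoid receptor half-site AGAACA (16.1% of all windows), the AP-1 site TGANTCA (6.75%) or the GC box GGGCGG (32.7%), both strands searched. A window without a match says only that these letters are not in it.

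Krt19, a type I keratin of simple epithelia and of the follicle bulge, had the largest positive log2 fold change of the 10 genes, at 1.20 ± 0.88 (95% interval -0.79 to 3.20, adjusted p = 0.489). It read 5.55, 7.17, 7.06 and 5.30 in the wild-type arrays and 7.27, 5.37, 7.19 and 10.06 in the GR-null arrays. GR-null 26 exceeded all others by more than 2 log2 units, GR-null 17 was as low as the lowest wild-type arrays, and without GR-null 26 the log2 fold change was 0.34. Its within-array difference from Krt8 was 1.31 ± 0.60 (SD) in wild-type and -0.64 ± 1.88 in GR-null skin.

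Wild-type 6 and 28 and GR-null 26 were above the mean over all arrays for both Krt6a and Krt19. They were also above it for Krt4, Krt13 and Krt7. These are keratins of internal stratified epithelia and of periderm, the transient outer layer of the embryonic epidermis. GR-null 5 and 25 were above the mean for Krt19 (by 0.40 and 0.32 log2) but below it for Krt6a, Krt13 and Krt7. Krt4 was at 0.01 and -0.28 there. Krt4 read 6.64, 8.45, 8.11 and 5.98 in wild-type arrays and 7.48, 5.80, 7.19 and 10.10 in GR-null arrays, with the same array at the top and the same array at the bottom of the GR-null group as Krt6a. Krt13 read 6.03, 8.95, 9.32 and 5.84, then 6.04, 4.72, 6.07 and 7.70, and Krt7 read 7.43, 9.56, 9.77 and 7.28, then 7.69, 5.81, 7.55 and 9.16. In all of Krt6a, Krt8, Krt18, Krt19, Krt4, Krt13 and Krt7, wild-type 6 and 28 exceeded wild-type 4 and 29. This order also held for Krt5, Krt16 and Krt17, more narrowly against wild-type 29, but not for Krt14, Krt15 or Krt6b. Among the other measured periderm markers this held for Sfn and Tgm1 but not for Arhgap29 and Grhl3. Arhgap29 read 10.89, 10.59, 10.62 and 10.88 in wild-type arrays, then 10.67, 10.88, 10.78 and 10.65. Grhl3 was lowest of all arrays in wild-type 6, at 7.40. Of the 7 measured periderm markers, 0 were past the threshold by limma and 0 had an unadjusted p below 0.05. Their mean ranged from 8.19 to 9.54 in wild-type and from 7.65 to 9.57 in GR-null arrays. With that mean as a covariate, added after seeing the data, Krt19 was at 1.62 ± 0.30 log2 (adjusted p = 0.0224). In that fit 1227 of all genes passed, and Krt6a was not past the threshold. The mean holds Krt4, Krt13 and Krt7, which share high arrays with Krt19 in these same data. The call is therefore no independent support for a rise of Krt19. With the muscle mean as a covariate Krt19 was at -0.89 ± 1.30 (adjusted p = 0.87). Merkel cells, the touch receptor cells that carry Krt8, Krt18 and Krt20, had Krt20 at 4.33 to 4.67 and Atoh1 at 5.59 to 5.83 over all arrays. The transcription factors Sox2 and Isl1 of the same list ranged from 6.68 to 8.003 and from 6.81 to 7.503, with log2 fold changes of -0.48 and -0.28 (adjusted p = 0.182 and 0.21). The mean of the 9 Merkel markers was 5.36 to 5.59 in wild-type and 5.30 to 5.40 in GR-null arrays. Of these 9, Sox2 and Isl1 were lower at an unadjusted p below 0.05, against 11.1% of all genes, and 0 were past the threshold. Piezo2 was at 0.15 log2, and Krt20, Atoh1, Rab3c, Ina, Insm1 and Vip lay between -0.083 and -0.0012. The mean of the 5 mesothelial markers was 5.17 to 5.98 in wild-type and 4.88 to 6.22 in GR-null arrays, with 0 at either threshold. Msln of that list read 5.14, 6.02, 6.39 and 4.92, then 5.26, 4.72, 5.39 and 6.38. Upk3b read 4.62, 6.71, 6.90 and 5.10, then 7.77, 4.69, 7.46 and 7.99. Wild-type 6 and 28 thus exceeded wild-type 4 and 29 for both, but not for Wt1, Lrrn4 or Upk1b. The part of these cell types in the keratin values was not tested.

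**Figure D3:**
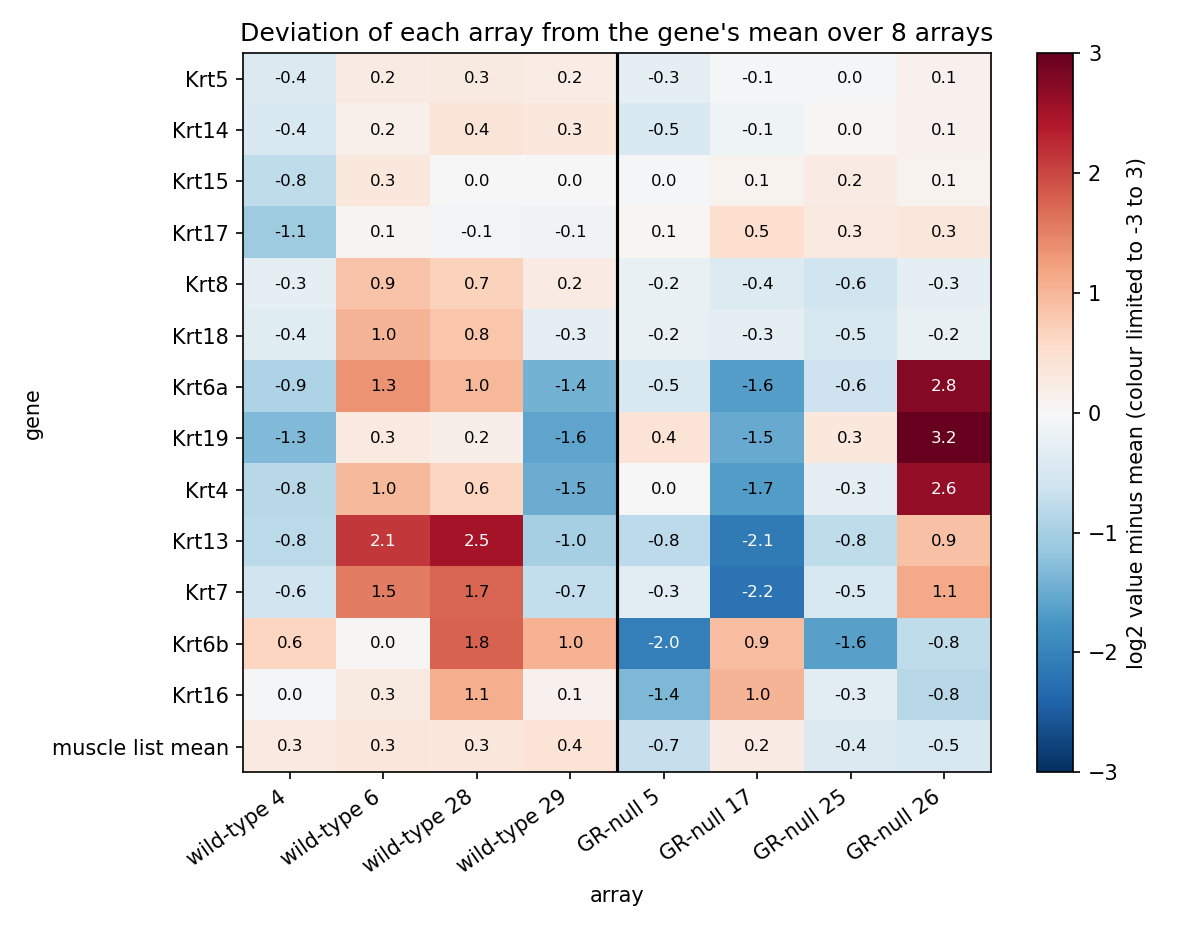
Log2 value of each array (columns) minus the gene's mean over all 8 arrays, for 10 member keratins, 3 other keratins of the periderm list and the mean of 18 skeletal muscle markers (rows); red is above and blue below the mean, and the colour is limited to -3 and 3. Wild-type 6 and 28 and GR-null 26 are red for Krt6a, Krt19, Krt4, Krt13 and Krt7, and Krt19 is also red in GR-null 5 and 25. Krt6b and Krt16 are blue in GR-null 5, 25 and 26 and red in GR-null 17, as is the muscle mean.

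Among the 38 other keratin genes on the array, 2 rose (1.4% of all genes did) and 2 fell (1.56% of all genes did) past the threshold and 34 did not pass it, with a median log2 fold change of 0.09 (-0.0045 over all genes). Krt77 rose by 4.52 ± 0.39 log2 and Krt80 by 1.35 ± 0.29, while Krt12 fell by 3.97 ± 0.31 and Krt78, the coding gene next to Krt8, fell by 2.18 ± 0.15 (limma adjusted p = 0.00171, 0.0462, 0.00111 and 0.000663). Krt80 lost its call in 7 of the 8 fits without 1 array, the other 3 in 0 of 8. The type I and type II keratins that passed the threshold were thus outside the 10 genes described here.

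In lists of related genes, calls were read against 1.4% of all genes higher and 1.56% lower past the threshold. Genes that anchor or cross-link keratin filaments showed 1 rise, that of the hemidesmosomal collagen Col17a1 at 0.59 ± 0.12 log2 (adjusted p = 0.0408). The other 18 of 19 measured genes of this list were not past the threshold, and its median log2 fold change was 0.0003. Of 22 transcription factors known to act on basal or wound keratin genes, 2 rose and 20 were not past the threshold, with a median of 0.01. Klf5, a zinc finger factor of basal keratinocytes, rose by 0.83 ± 0.17 log2 (1.78-fold, adjusted p = 0.0382), from 10.65, 10.64, 10.84 and 10.96 in wild-type to 11.33, 11.27, 11.92 and 11.89 in GR-null arrays. Trp63, the master regulator of stratified epithelia that drives Krt5 and Krt14, rose by 0.60 ± 0.12 (1.52-fold, adjusted p = 0.0372), from 10.46, 10.46, 10.76 and 10.40 to 10.96, 11.08, 11.41 and 11.05. For both factors every GR-null array lay above every wild-type array, while Krt5 and Krt14 overlapped between the groups. Of 20 measured genes that accompany wound keratins in injured epidermis, 1 fell, the cornified envelope gene Sprr1b, by 4.42 ± 0.49 (adjusted p = 0.00547), and 19 were not past the threshold, with a median of -0.06. The calls of Col17a1, Klf5 and Trp63 were lost in 7, 7 and 6 of the 8 fits without 1 array, each with its direction kept, and that of Sprr1b in 0. With the skeletal muscle mean as a covariate Col17a1, Klf5 and Trp63 were at 0.41 ± 0.20, 0.63 ± 0.29 and 0.61 ± 0.21 log2 (adjusted p = 0.535, 0.489 and 0.368), so that the fold of Trp63 was as large and its error wider. Read without probe sets ending in _x_at, _s_at or _a_at, Klf5 was at -0.13 log2.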

How the data were processed

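Total RNA of dorsal skin was hybridised to Affymetrix mouse expression arrays. The authors deposited log2 values per probe set made with RMA, per the submitters' processing notes, which subtracts background, equalises intensity distributions and compresses differences of very dim or very bright transcripts. Neither the RMA version nor the probe set definition is stated there, and no detection calls were used. The number of arrays limits the precision.

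Of 45101 probe sets, 64 controls were left out. Symbols came from the platform annotation, and all 10 members were found in RefSeq. A linear model with genotype as its term was fitted to all probe sets with limma 3.58.1 in R 4.3.3 (lmFit, eBayes, two-sided) and checked on simulated data. P-values were adjusted by Benjamini-Hochberg over 18193 genes or 45037 probe sets, threshold 0.05. Partner differences are within-array differences of log2 values.

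The members, lists and most alternatives were chosen with earlier results of these data known. All members were named, and in each list of pathway genes those past the threshold. Krt4, Krt13, Krt7, Krt20, Atoh1, Sox2, Isl1 and the follicle keratins (Krt25, Krt27, Krt28, Krt35, Krt71, Krt73 and Krt75) were named from the lists after their values were seen. So were the other named genes of the periderm, Merkel, mesothelial and suprabasal lists. Of the members, 4 were in the RefSeq upstream table. The alternatives, run also for other named genes after seeing the data, were other scaling, filters, priors, weights, covariates and gene values, a threshold of 0.01, and leaving out each array.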

Additional observations from a re-analysis of the deposited data

Results flagged for a closer look

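In wild-type 4, Krt5 read 12.68 log2 against 13.34 to 13.39 in the other wild-type arrays, and Krt17 read 9.25 against 10.21 to 10.40. Both were marked because the gap to the nearest array exceeded Dixon's critical value for 4 samples, at 0.926 and 0.837 of the group's range. These were 2 of 20 groups of 4 tested, and chance marks about 1 in 20. Krt14 and Krt15 were also lowest in that array within the wild-type group.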

How the results depend on the processing

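The count of members past the threshold was 0 with all arrays. It was 2 with array weights (Krt6b and Krt8), where 10.7% of all genes passed against 2.96% with the chosen settings, 1 with the periderm covariate (Krt19; 6.74% of all genes), and 0 to 2 without any 1 array, reaching 1 without wild-type 4 (1.62% of all genes) and 2 without GR-null 17 (9.01%). The count of member probe sets was 1 with all arrays, 4 with array weights (12.9% of all probe sets against 3.85%) and 2 with the periderm covariate (9.2%). It was 0 with the Y-linked (3.49%), skeletal muscle (0.0644%) or basal keratinocyte covariate (0.0133%) and at a threshold of 0.01 (0.164%). Without any 1 array it was 0 to 3, where 0.278% to 10.8% of all probe sets passed. The cause of these changes was not tested. In the filter on dim probe sets 8 of the 10 members were read, and without probe sets ending in _x_at, _s_at or _a_at 9 were.

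Signs changed for Krt6a to -0.0012 with array medians subtracted, to -1.62 with the muscle covariate, and over a range of -0.91 to 0.55 without any 1 array. With the muscle covariate Krt6b was at 0.35, Krt16 at 0.91 and Krt19 at -0.89, and Krt15 was at -0.068 with the basal keratinocyte covariate and between -0.0055 and 0.36 without any 1 array. Klf5 was at -0.13 without probe sets ending in _x_at, _s_at or _a_at. The basal keratinocyte covariate also moved values without a call, Krt6a to 2.90, Krt19 to 3.82, Krt5 to -0.42 and Krt14 to -0.67. Krt5, Krt14, Krt17, Krt8 and Krt18 kept their direction in every alternative run. No paired analysis was run, since the labels give no litters and nothing else that would pair a wild-type with a GR-null array. The 95% intervals of Krt6a (-2.15 to 2.16) and Krt19 (-0.79 to 3.20) show how little these arrays limit their difference.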
